A study of Homo sapiens with 18 samples.

Results

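Transfer RNA recovered with an antibody against N1-methyladenosine (m1A) and then treated with the demethylase AlkB was compared with unselected small RNA (input) from the same vector-carrying cells. The comparison covered all 725 adenosine sites, in 180 tRNA genes, that the authors listed as methylated, taken from 3 AlkB-treated immunoprecipitates (IP) and 3 inputs paired by their replicate numbers. Of these, 356 sites in 87 tRNA genes were covered by at least 20 reads in each of the 6 libraries. How the authors selected the listed sites is not given in the sources used here, so nothing is said about unlisted adenosines.

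The cells were WPMY-1, an immortalised human line of prostate stromal myofibroblasts, carrying an empty vector, and the label gives their genotype as TRMT61A wildtype in both groups. The series also holds TRMT61A knockdown cells and IP libraries without AlkB, 18 libraries in all. RNA shorter than 200 nucleotides was enriched, m1A-bearing fragments were pulled down with the antibody, and the eluate was split into a portion given AlkB and a portion left untreated before sequencing. The input had neither antibody selection nor AlkB, so in this comparison the effects of antibody and enzyme cannot be told apart. The labels do not say whether the replicates were separate cultures, so the p-values reflect only how far these particular libraries differ, which can be technical.

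m1A at position 58 of the T loop is made in the cytosol by the complex of TRMT6 and TRMT61A and helps to hold the folded tRNA together. Its methyl group sits on the edge of the base that pairs during copying, so reverse transcriptase stops there or inserts a wrong base, which leaves either missing coverage on the 5′ side or a mismatch. AlkB removes the methyl group, after which the enzyme can copy through.

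Reads summed over the listed sites came to 186539, 331831 and 373039 in the AlkB-treated IP and to 307981, 251182 and 279593 in the input. The deepest site held 7032 reads, and no site in these 6 libraries reached 7500, whereas 29 to 51 sites per library did in the untreated IP, where counts stop near 8000. IP replicates differed from each other by far more than counting noise. With each tRNA gene counted at its deepest listed site, chi-square per degree of freedom was 52.6 to 71.6 between IP replicates and 1.74 to 3.98 between input replicates. Replicates with the same number did not deviate from their group means together (correlations from -0.154 to 0.0996).

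The sequences below carry the findings that follow. They are the tRNA genes of the deposited table in hg38, 5′ to 3′, without the added CCA, and the capitals mark the 5 bases that end in the adenosine of position 58, plus A21 in Val-AAC-1-1. Val-AAC-1-1 (chr3:169772230-169772302, plus strand), Tyr-GTA-5-4 (chr14:20663192-20663285, minus strand) and Ser-AGA-2-6 (chr17:8226610-8226691, minus strand) showed large changes. Gln-CTG-1-4 (chr15:65869062-65869133, minus strand) showed a moderate change, and Val-TAC-1-1 (chr11:59550629-59550701, minus strand) and the initiator iMet-CAT-1-1 (chr1:153671250-153671321, plus strand) showed none that passed the test. The tyrosine entry includes its intron, as the table gives it, so its position 58 is gene nucleotide 79.
Val-AAC-1-1: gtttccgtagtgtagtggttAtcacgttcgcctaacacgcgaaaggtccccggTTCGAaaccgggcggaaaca
Tyr-GTA-5-4: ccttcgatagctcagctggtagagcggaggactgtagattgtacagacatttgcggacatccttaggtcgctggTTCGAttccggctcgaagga
Ser-AGA-2-6: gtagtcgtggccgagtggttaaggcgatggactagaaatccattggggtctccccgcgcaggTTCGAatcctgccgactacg
Gln-CTG-1-4: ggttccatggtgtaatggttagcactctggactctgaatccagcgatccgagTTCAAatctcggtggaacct
Val-TAC-1-1: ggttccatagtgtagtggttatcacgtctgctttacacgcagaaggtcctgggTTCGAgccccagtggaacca
iMet-CAT-1-1: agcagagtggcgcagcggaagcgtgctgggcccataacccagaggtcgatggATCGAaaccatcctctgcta
Valine, tyrosine and serine share TTCGA with Val-TAC-1-1, which lies at the opposite end of the range, while the glutamine tRNA has TTCAA and the initiator ATCGA. Over the tRNAs tested, input read-through had a median of 13.9% in the 15 with A at position 57 and 13.8% in the 35 with G there.

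Read-through of position 58 was defined as the reads covering that adenosine divided by the median of reads at listed sites within 8 nucleotides of the tRNA's 3′ end. It can exceed 100% where fragments that lack the 3′ end add reads at position 58. Summed over the 66 tRNAs with both kinds of site, read-through was 47.0%, 71.6% and 71.5% in the AlkB-treated IP and 10.5%, 10.8% and 10.7% in the input. All IP libraries lay above all inputs, with IP replicate 1 the lowest IP library. The means were 63.4% ± 14.2 (SD, n = 3) and 10.6% ± 0.155 (SD, n = 3), a ratio of 5.96 and a difference of 52.7 percentage points (exact permutation test, two-sided, p = 0.1, the smallest that 3 against 3 libraries can give). Because the IP and the input hold tRNAs in different proportions, the sum was also taken with every tRNA given its mean weight in the input: over 50 tRNAs read-through was then 62.3% ± 14.6 in the IP and 10.6% ± 0.281 in the input (SD, n = 3 each). With the mean weights of the IP, the input rose to 18.2% ± 0.486 and the ratio fell to 3.52.

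Among the 3 steps measured around position 58, input coverage dropped most into positions 58 and 59. From position 59 to position 58, in the 54 tRNAs with both sites listed, 17.3%, 18% and 18.4% of the reads continued in the input and 76.2%, 81.1% and 82.2% in the AlkB-treated IP (exact permutation test, two-sided, p = 0.1, n = 3 each). From position 60 to 59, listed together in only 5 tRNAs, 32.2% ± 0.291 continued in the input and 93.7% ± 7.71 in the IP (SD, n = 3). One base past the methylated adenosine, from 58 to 57, the groups overlapped: 79.4% ± 2.67 in the input and 79.6% ± 5.49 in the IP over 31 tRNAs (exact permutation test, two-sided, p = 1, n = 3 each). Val-AAC-1-1 shows the sequence of steps in reads. At A60, A59 and A58 the inputs had 4846, 1471 and 43 reads in replicate 1, 4268, 1301 and 45 in replicate 2 and 4576, 1470 and 34 in replicate 3. The IP libraries had 313, 234 and 167 reads in replicate 1, 958, 933 and 796 in replicate 2 and 274, 262 and 251 in replicate 3.

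**Figure D1:**
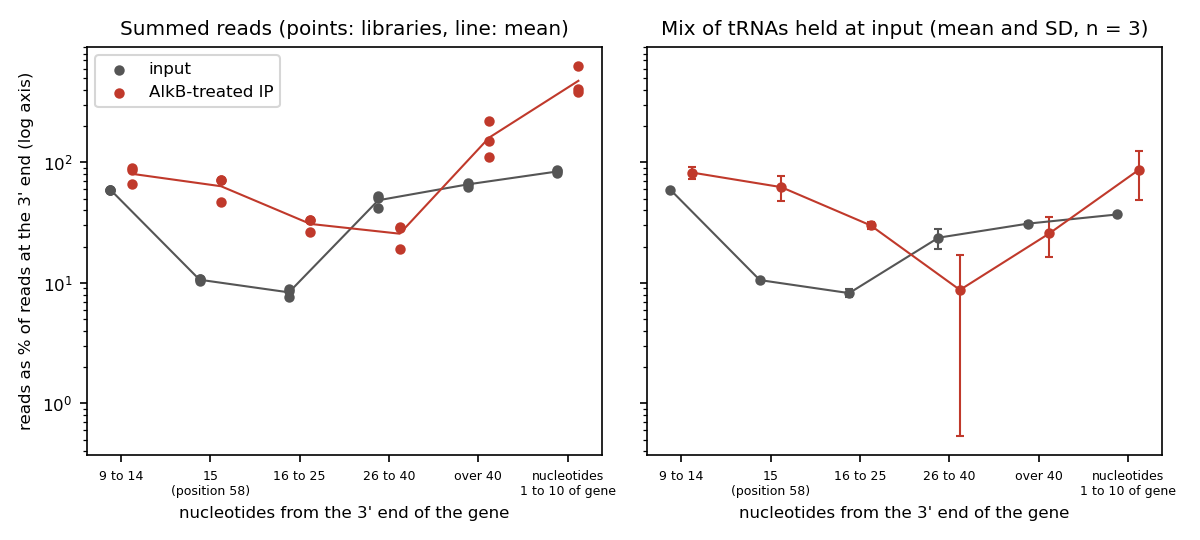
Reads along the tRNA as a percentage of reads at the 3′ end (vertical axis, log scale), in 6 bins by distance from the 3′ end, for the AlkB-treated IP and the input. On the left reads are summed (points are libraries, the line joins means), and on the right the mix of tRNAs is held at the input mean (mean and SD, n = 3). In the summed reads the groups lie apart in every bin, with the IP at 47.0 to 71.6% and the input at 10.5 to 10.8% at position 58, and the IP lower only from 26 to 40 nucleotides from the end.

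Coverage on either side of position 58 is drawn in the plot of reads along the tRNA. Sites 9 to 14 nucleotides from the 3′ end, before the T-loop adenosine is reached, held 80.4% ± 12.1 of the 3′-end reads in the IP and 59.4% ± 0.0534 in the input. Just beyond position 58, 16 to 25 nucleotides from the end, the values were 30.8% ± 3.68 and 8.34% ± 0.667. From 26 to 40 nucleotides, over 10 tRNAs, the order turned, with 25.6% ± 5.58 in the IP and 48.5% ± 6.12 in the input. These values are mean ± SD of 3 libraries, and in each bin the groups did not overlap (exact permutation test, two-sided, p = 0.1, the same after adjustment over 6 bins). Farther than 40 nucleotides the IP held 160% ± 54.1 and the input 65.6% ± 2.42, but with tRNA weights fixed at the input mean over 29 of the 40 tRNAs, the values were 25.7% ± 9.32 and 31.0% ± 0.918 (SD, n = 3) and the groups were not apart (exact permutation test, two-sided, p = 0.4). At gene nucleotides 1 to 10 the IP held 475% ± 140.0 and the input 83.9% ± 2.26 (SD, n = 3), over 22 tRNAs, and with fixed weights over 16 of them 86.5% ± 37.45 and 37.0% ± 1.38. The fixed weights come with fewer tRNAs, so the mix and the set of tRNAs cannot be told apart here.

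Read-through rose in most tRNAs. The 50 tRNAs whose 3′ end was covered by 20 or more reads throughout were tested by limma on log2 read-through with replicate number as a block, and 42 passed an adjusted p of 0.05, all of them higher in the IP (84% of those tested). The 3 IP values lay above the 3 input values in 46 tRNAs (92%) and below them in 0. Input levels were widely spread, from 0.167% to 92.9% with a median of 13.9%, while IP levels ran from 28.6% to 125% with a median of 67.05%. The standard deviation of log2 read-through across tRNAs was 1.94 in the input and 0.41 in the IP, and 16 tRNAs read under 10% in the input against 0 in the IP. The median change was 2.11 on the log2 scale. Leaving out replicate pair 1, 2 or 3 gave 40, 36 and 32 calls. Summed by anticodon, 18 of 22 anticodons passed, all higher (81.8%), although reads may still be counted for several genes within and between anticodons.

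**Figure D2:**
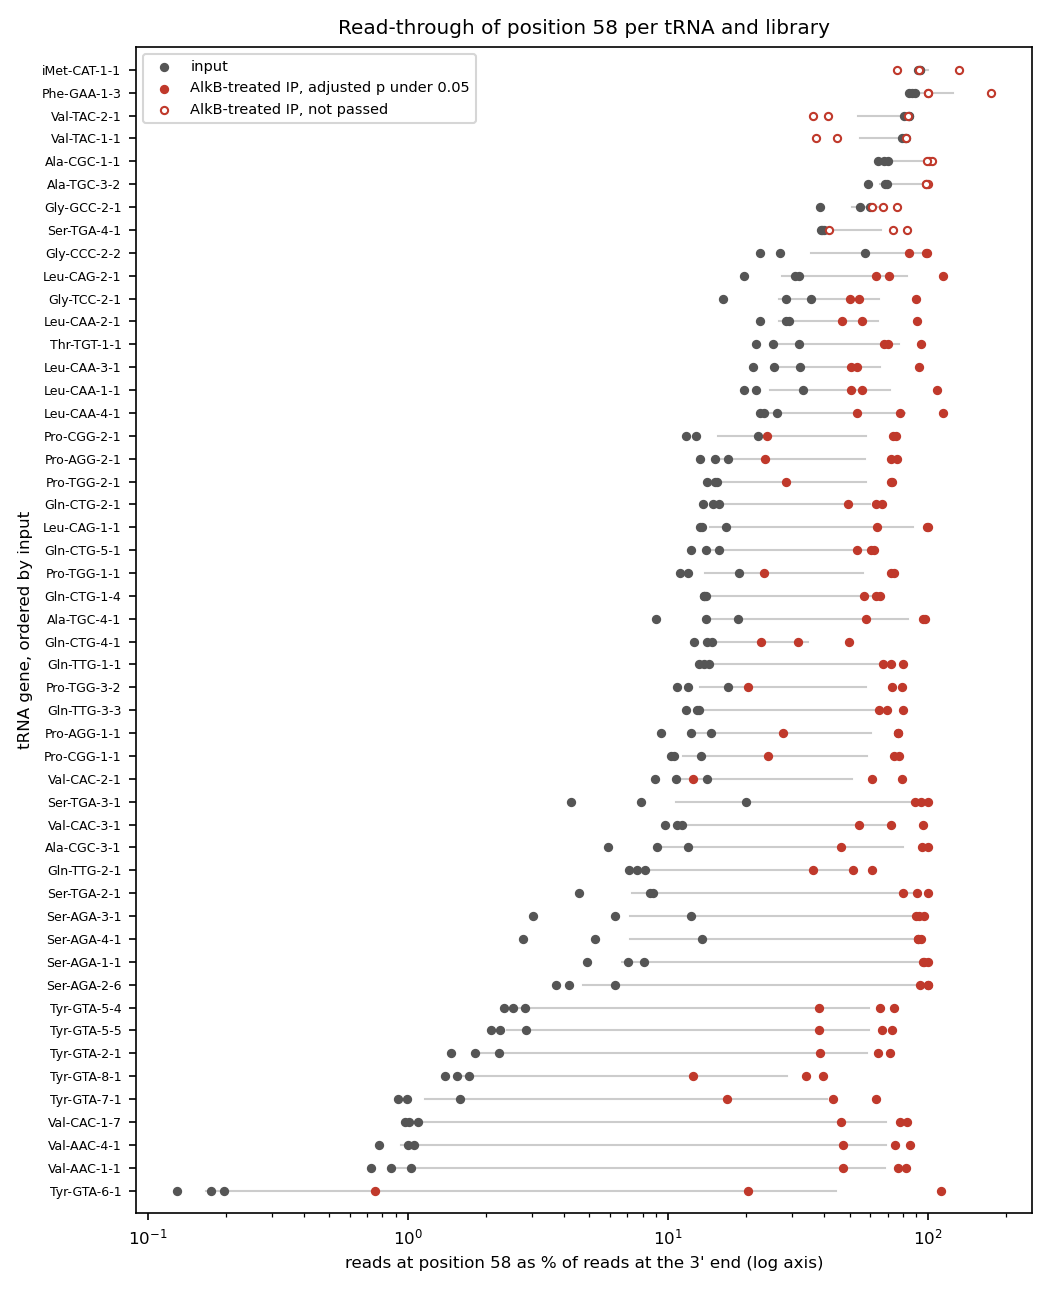
Read-through of position 58 per tRNA (horizontal axis, percent, log scale), for the 50 tested tRNAs; points are libraries of the AlkB-treated IP and the input, open where the tRNA did not pass, and the grey line joins the group means. Input values stretch from below 1% in valine and tyrosine tRNAs to 79.5% and above in iMet-CAT-1-1, Phe-GAA-1-3 and Val-TAC. The mean IP values lie between 28.6% and 125%.

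The largest changes were in valine and tyrosine tRNAs. Val-AAC-1-1, which decodes valine codons, had a read-through of 47.2%, 82.5% and 76.5% in the IP and 0.860%, 1.03% and 0.723% in the input. The groups were far apart, and the log2 change was 6.26 (SE 0.30, limma adjusted p = 4.97e-05). These input values rest on 43, 45 and 34 reads at position 58 out of 4998, 4374 and 4703 at the 3′ end. Val-AAC-4-1 and Val-CAC-1-7 gave nearly the same counts as Val-AAC-1-1 (log2 changes of 6.15 and 6.01), so the same reads may be counted for all 3 genes. Val-CAC-3-1 changed by 2.75, and Val-CAC-2-1 by 1.82 although its lowest IP value, 12.5%, lay within the input range of 8.95% to 14.1%.

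The valine tRNAs with anticodon TAC did not pass, and they are named here after their values were seen. Val-TAC-1-1 read through at 44.9%, 37.3% and 82.2% in the IP and at 82.1%, 82.2% and 79.5% in the input. IP replicates 1 and 2 lay below every input and replicate 3 beside them, and the log2 change of -0.65 (SE 0.33) did not pass (limma adjusted p = 0.111). Val-TAC-2-1 changed by -0.73 (limma adjusted p = 0.083). Input reads at its position 58 numbered 575, 477 and 569, so sparse counts do not limit the input value.

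All 6 tyrosine tRNAs tested, which carry tyrosine and are made from intron-bearing genes, rose. Tyr-GTA-5-4 read through at 38.1%, 74.2% and 65.2% in the IP and at 2.82%, 2.54% and 2.34% in the input. The lowest IP library was far above the highest input, and the log2 change was 4.46 (SE 0.33, limma adjusted p = 1.52e-04). Tyr-GTA-2-1 and Tyr-GTA-5-5 changed by 4.93 and 4.56 with similar counts, so they may not be independent of it. Tyr-GTA-7-1 changed by 4.94, with fewer reads at position 58 in the IP (169, 835 and 432 against 555, 1404 and 1167). Tyr-GTA-6-1 had the lowest input of the 50 tRNAs tested, 0.176%, 0.196% and 0.130%, but its IP values were 20.4%, 0.748% and 112%, a spread that left the change of 6.07 with an SE of 1.36 (limma adjusted p = 0.0074). In IP replicate 2 that tRNA had 4 reads at position 58 out of 535. Tyr-GTA-8-1 rose from 1.55% ± 0.162 to 28.6% ± 14.2 (SD, n = 3).

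Serine tRNAs, whose long variable arm sets them apart in shape, lay higher in the IP in all 7 tested. Of these 6 passed, near the 84% over all tRNAs, with a median log2 change of 3.61 beside 2.11 over all. The 6 that passed had similar counts, with 30 to 47 reads at the 3′ end in IP replicate 1. They may therefore not be separate results, and the median may rest on shared reads. Ser-AGA-2-6 read through at 100%, 100% and 93.6% in the IP and at 3.70%, 6.25% and 4.17% in the input. The groups were far apart (log2 change 4.03, SE 0.29, limma adjusted p = 1.52e-04), with 3′-end coverage of 23 to 54 reads in each library. The input values rest on 2, 2 and 1 reads at position 58, so the 0.5 reads added before the log weigh on the size of the change. Ser-TGA-4-1 was the exception, with an input of 38.8% to 40% and a log2 change of 0.68 that did not pass.

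Glutamine, leucine and proline tRNAs had input levels between 7.62% and 27.5%, and all of them passed: 7 of 7 for glutamine (median log2 change 2.15), 6 of 6 for leucine (1.53) and 7 of 7 for proline (1.85). Over all tRNAs tested 84% passed, with a median of 2.11, so these counts are near the background. Gln-CTG-1-4, among the deepest, read through at 56.6%, 65.3% and 63.2% in the IP and at 13.8%, 13.8% and 14.1% in the input. Its groups were tight and apart, and the log2 change was 2.15 (SE 0.26, limma adjusted p = 6.59e-04). At the 3′ end Gln-CTG-1-4 had 2087, 4730 and 6341 reads in the IP and Gln-CTG-5-1 had 2100, 4730 and 6619. The Leu-CAA tRNAs also had similar counts, with 148.5 to 194 reads there in IP replicate 1. Within each of these sets the tRNAs may not be separate results. Proline tRNAs split the IP libraries: replicate 1 read 20.3% to 28.6% across the 7 tRNAs and replicates 2 and 3 read 71.9% to 79.9%, all above their inputs. Counts were similar across the 7 genes, with 608 to 679 reads at the 3′ end in IP replicate 1, so they may not be separate results. Leu-CAG-1-1 rose from 14.5% ± 1.903 to 87.6% ± 20.6 (SD, n = 3). The single threonine tRNA tested passed (1.53), as did 2 of 3 glycine tRNAs (median 1.25).

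Alanine tRNAs fell into levels of 2 kinds. Ala-CGC-3-1 and Ala-TGC-4-1 had inputs of 5.88% to 18.6% and rose by 3.02 and 2.55. Ala-CGC-1-1 and Ala-TGC-3-2 had inputs of 58.9% to 70.0% and changes of 0.58 and 0.59, which did not pass (limma adjusted p = 0.076 for each), although IP and input did not overlap. The initiator tRNA iMet-CAT-1-1, which starts every cytosolic protein, already had a read-through of 92.1%, 93.0% and 93.7% in the input. In the IP iMet-CAT-1-1 had 131.7%, 76.2% and 92.5%. Its groups overlapped and its log2 change was 0.07 (SE 0.29). Phe-GAA-1-3 (log2 change 0.47) and Gly-GCC-2-1 (0.41) made up the rest of the 5 smallest absolute changes.

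Shares of reads by anticodon asked which tRNAs the treated IP held more or less of than the input. Each tRNA was counted at its listed site with the most reads, and edgeR's quasi-likelihood test with replicate number as a block called 24 of 43 anticodons (55.8%), 15 higher in the IP (34.9%) and 9 lower (20.9%). The groups did not overlap for 29 (67.4%), of which 18 were higher (41.9%) and 11 lower (25.6%). A share falls when other tRNAs take more of the library, so a lower share and less RNA cannot be told apart. With replicate pair 1, 2 or 3 left out the calls numbered 12, 8 and 15. Under trimmed-mean (TMM) scaling, which moved the median change by -0.48 on the log2 scale, 10 anticodons were higher and 12 lower, 45.5% of calls higher against 62.5%.

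**Figure D3:**
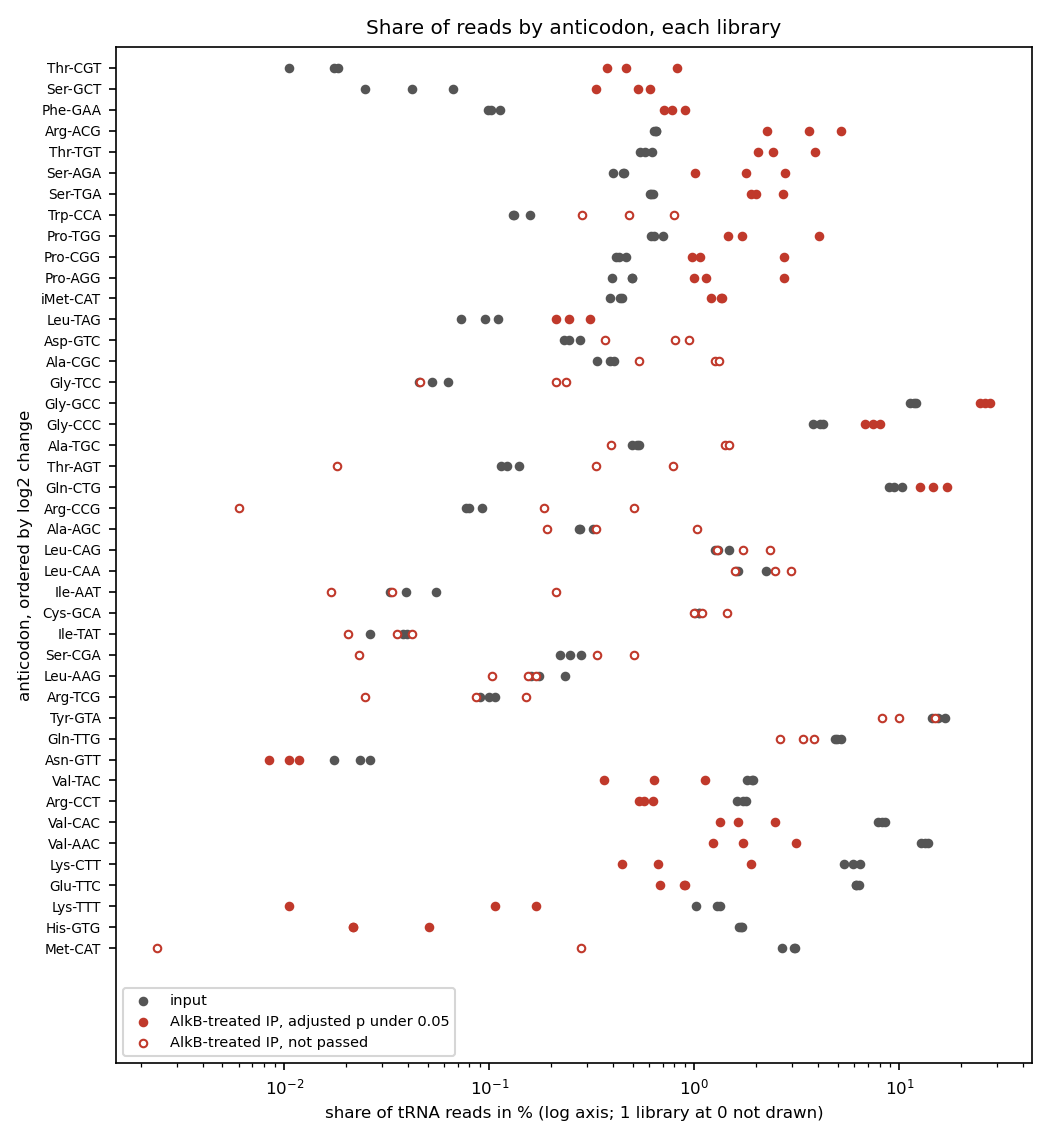
Share of reads by anticodon (horizontal axis, percent of the library, log scale) in the AlkB-treated IP and the input for the 43 anticodons tested; points are libraries, open where the anticodon did not pass, and 1 library at 0 is not drawn. His-GTG, Lys-TTT, Glu-TTC and Val-AAC lie lower in the IP, and Gly-GCC, Phe-GAA and Thr-CGT higher, with no overlap between the groups.

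Among the anticodons that passed, those of histidine, lysine, glutamate and valine had the most negative log2 changes of share. His-GTG held 0.0506%, 0.0217% and 0.0216% of reads in the IP and 1.66%, 1.70% and 1.69% in the input, a log2 change of -5.86 (SE 0.50, edgeR adjusted p = 0.0069). Glu-TTC held 0.899%, 0.894% and 0.682% in the IP and 6.13%, 6.37% and 6.18% in the input (log2 change -2.93, edgeR adjusted p = 0.0024). IP and input were apart for both, and Lys-TTT (-4.17), Lys-CTT (-2.86) and Arg-CCT (-1.56) fell as well. His-GTG and all tRNAs counted for Glu-TTC and Lys-CTT, 5 and 9 of them, had their deepest listed site in the 5′ part, beyond position 58, as had 4 of 5 for Lys-TTT. Met-CAT, the elongator methionine tRNA, held 0, 2 and 259 reads in the IP against 2291, 2113 and 2343 in the input, and the replicate spread left it short of the threshold (log2 change -7.97, edgeR adjusted p = 0.052).

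Valine anticodons fell together. Val-AAC held 1.73%, 3.13% and 1.23% in the IP and 12.8%, 13.8% and 13.3% in the input, a log2 change of -2.82 (SE 0.31, edgeR adjusted p = 0.0080). Val-CAC changed by -2.23 and Val-TAC by -1.56, and Val-AAC and Val-CAC may share reads. Counted at sites within 8 nucleotides of the 3′ end only, they changed by -2.94, -2.12 and -1.34 and all passed.

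Some threonine, serine and arginine anticodons gained, as did Phe-GAA and all 3 proline anticodons. Thr-AGT (0.70), Ser-CGA (-0.37), Arg-CCG (0.52) and Arg-TCG (-0.49) did not pass. Thr-CGT held 0.466%, 0.827% and 0.375% in the IP and 0.0106%, 0.0175% and 0.0183% in the input, a log2 change of 5.11 (SE 0.53, edgeR adjusted p = 0.0080). Phe-GAA changed by 2.92, Arg-ACG by 2.44, Thr-TGT by 2.21, Ser-GCT by 3.52, Ser-AGA by 1.98, Ser-TGA by 1.81 and Pro-TGG by 1.73. The site counted lay a median of 14 nucleotides from the 3′ end for Ser-GCT and both threonine anticodons, 15 for Arg-ACG and 16 for Phe-GAA. These lie at or next to position 58. For Ser-AGA and Ser-TGA the median was 68. A change of read-through at position 58 enters those shares, and how much of them it makes up was not tested. With 3′-end sites alone, 13 of 30 anticodons passed (43.3%), 9 higher (30%) and 4 lower (13.3%). Phe-GAA (2.67), Ser-TGA (1.64) and Pro-TGG (1.96) were among them, whereas Thr-TGT (-0.23) and Ser-AGA (0.02) did not pass. Thr-CGT, Arg-ACG and Ser-GCT had no listed site at the 3′ end.

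Of the 5 anticodons with the most input reads, Tyr-GTA held 14.95%, 9.999% and 8.23% in the IP and 16.6%, 14.5% and 15.4% in the input. The groups overlapped, and the log2 change of -0.53 did not pass (edgeR adjusted p = 0.061), although it passed as lower under TMM scaling (-1.01). Gln-CTG held 12.6%, 14.6% and 17.1% in the IP and 10.3%, 8.92% and 9.39% in the input (log2 change 0.63, edgeR adjusted p = 0.030), and under TMM scaling the change was 0.15 and did not pass. Gly-GCC was the most abundant in the IP, with 24.7%, 26.1% and 27.8% against 11.2%, 11.8% and 12.1% in the input. Its groups were far apart for their spread (log2 change 1.16, SE 0.06, edgeR adjusted p = 0.0024).

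The glycine and glutamate tRNAs were covered unevenly along their length. In the 5′ part, more than 40 nucleotides from the 3′ end, Gly-GCC had 11741, 21641 and 25692 reads in the IP and 9502, 8025 and 9202 in the input. At its 3′ end it had only 915, 889 and 640 in the IP and 47, 45 and 56 in the input. Counted at the 3′ end its log2 change was 4.34 rather than 1.16 (SE 0.56, edgeR adjusted p = 7.17e-04). Glu-TTC had 5219, 4354 and 4732 reads in the 5′ part of the input and 427, 743 and 632 in that of the IP, but 85, 71 and 69 at the 3′ end of the input and 357, 168 and 400 in that of the IP. Its direction thus turned with the end counted, from -2.93 to 2.28 at the 3′ end, where it did not pass (edgeR adjusted p = 0.051). For both anticodons 5 tRNAs had listed sites in the 5′ part and 3 at the 3′ end. The end and the set of tRNAs therefore cannot be told apart here.

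Mismatches were rare and changed at few sites. A mismatch is a read with a base other than the reference A at the site, and which base was read is not analysed here. By a quasi-binomial model with replicate number as a block, its dispersion moderated by limma and held at 1 or more, 6 of 356 sites passed an adjusted p of 0.05 (1.69%), 1 higher in the IP (0.281%) and 5 lower (1.4%). At an unadjusted p under 0.05 there were 12 (3.37%). IP and input did not overlap at 45 sites (12.6%), 18 higher in the IP (5.06%) and 27 lower (7.58%). Without replicate pair 1, 2 or 3 a single site passed each time, and without the floor on the dispersion 110 did, 93 of them with fewer than 10 mismatched reads.

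Position 58 itself was read almost always as A where it was read at all. Over the 32 position 58 sites tested, 0 passed, and the median mismatch rate was 0.215%, 0.660% and 0.660% in the IP and 0.255%, 0% and 0% in the input (exact permutation test, two-sided, p = 0.2, adjusted p = 0.4 over 4 classes, n = 3 each). Pooled, 425 of 65160 reads mismatched in the IP and 78 of 13958 in the input. Tyr-GTA-5-4 had 3, 12 and 10 mismatched reads of 555, 1404 and 1167 in the IP and 0 of 49, 30 and 36 in the input. Gln-CTG-1-4 had 5, 19 and 20 of 1181, 3090 and 4010 in the IP and 4, 2 and 2 of 434, 294 and 348 in the input. At position 9, where some tRNAs carry m1A made by another enzyme, 0 of 12 sites passed, with 16 mismatched of 8767 reads in the IP and 8 of 9486 in the input. At position 14, 0 of 33 passed.

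**Figure D4:**
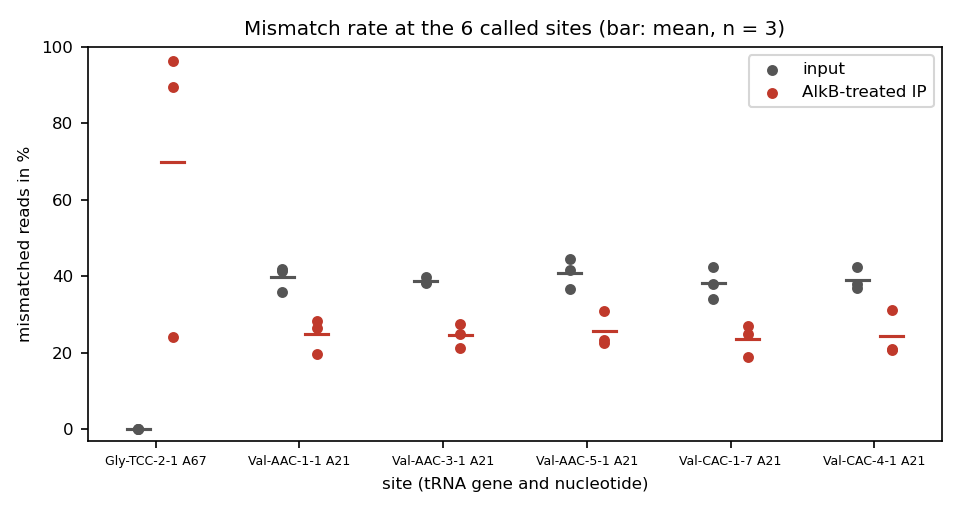
Mismatch rate (percent) at the 6 sites that passed the test, by library, in the AlkB-treated IP and the input; points are libraries and bars are means (n = 3). At Gly-TCC-2-1 A67 the IP lies at 96.4%, 89.5% and 23.98% with the input at 0, and at the 5 valine A21 sites the IP lies lower.

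All 5 sites that fell were A21 of valine tRNAs, in the D loop. At Val-AAC-1-1 A21 the rate was 28.2%, 19.8% and 26.5% in the IP and 41.3%, 41.9% and 35.9% in the input (quasi-binomial test with limma moderation, adjusted p = 0.0061). The groups did not overlap, on 39, 319 and 238 reads and 358, 332 and 359 reads. The next listed site of that tRNA, A24, had only 0, 3 and 0 reads in the IP and 1, 9 and 5 in the input. Nearly all reads over A21 of Val-AAC-1-1 thus did not cover A24. Whether the mismatch rate depends on where these reads end was not tested. Val-AAC-3-1, Val-AAC-5-1, Val-CAC-4-1 and Val-CAC-1-7 gave similar rates on similar counts and may share reads. Pooled over the 8 A21 sites listed for Val-AAC and Val-CAC, the rate was 30.3%, 23.96% and 24.4% in the IP and 41.96%, 40.03% and 41.3% in the input, a difference of -14.9 percentage points (exact permutation test, two-sided, p = 0.1, n = 3 each). In the untreated IP it was 22.5% ± 3.61 (SD, n = 3). The pool was chosen with earlier results of these data known.

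The site that rose was Gly-TCC-2-1 A67, in the acceptor stem of a glycine tRNA. In the IP 108 of 112, 34 of 38 and 47 of 196 reads mismatched, and in the input 0 of 45, 43 and 35, which when pooled allows a rate of up to 2.44% by counting error alone. Every IP library lay above every input, with IP replicate 3 well below the other two (quasi-binomial test with limma moderation, adjusted p = 2.64e-20). That p rests on the read counts and a dispersion of 2.58 shared across sites, not on the spread of the 3 IP libraries (SD 39.97 percentage points), and over the alternatives the adjusted p of this model and of limma on the logit ran from 3.61e-36 to 0.609. The neighbouring A68 had 0 mismatches in these libraries. In the untreated IP the counts were 0 of 5, 0 of 4 and 40 of 49. The gene (chr1:146037061-146037132, plus strand) is shown with Gly-GCC-1-1 (chr1:161443304-161443374, plus strand), the position 58 group in capitals as above and the base at gene nucleotide 67 of Gly-TCC-2-1 and its counterpart in capitals near the end.
Gly-TCC-2-1: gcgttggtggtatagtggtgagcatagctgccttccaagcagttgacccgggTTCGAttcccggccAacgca
Gly-GCC-1-1: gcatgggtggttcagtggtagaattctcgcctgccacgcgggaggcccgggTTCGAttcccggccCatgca
Over their last 25 bases the pair differ at 2, A67C and C69T, counted from the 5′ end of Gly-TCC-2-1 with its base first. Gly-GCC-1-1 had 385, 50 and 193 reads at its 3′ end in the IP. Gly-GCC-2-1 was closer, differing at 1 base, C69T, with A kept at 67, and had 529, 839 and 447 reads there. Gly-CCC-2-2 differed at 3, A67G among them, and had 361, 238 and 505. Gly-CCC-1-1 differed at 2 and kept A at 67, with 194, 241 and 255 reads. Whether reads of another glycine tRNA were placed on Gly-TCC-2-1 was not tested.

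The wobble adenosine A34 of Arg-ACG, which cells convert to inosine, lay below the read minimum in the IP and was not tested. At Arg-ACG-2-1 A34, 3 of 3, 5 of 5 and 7 of 8 reads mismatched in the IP and 3 of 57, 1 of 48 and 4 of 47 in the input. At Arg-ACG-1-3 A34, 1 of 1, 2 of 2 and 2 of 2 mismatched in the IP and 0 of 46, 0 of 34 and 3 of 33 in the input.

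The untreated IP of the same cells gives the values of antibody selection without the enzyme. Its summed read-through was 54.6%, 84.0% and 81.6%, overlapping the treated IP and above the inputs at 10.45%, 10.75% and 10.68%. The treated mean minus the untreated was -10.02 percentage points (exact permutation test, two-sided, p = 0.5, n = 3 each). Counts of deep tRNAs stop near 8000 in the untreated IP, at position 58 as at the 3′ end, so this sum does not settle whether the 2 kinds of IP differ. Per tRNA, 4 of 45 passed (8.89%), all higher after AlkB and all tyrosine: Tyr-GTA-2-1 (log2 change 3.76), Tyr-GTA-5-4 (3.71), Tyr-GTA-5-5 (3.63) and Tyr-GTA-7-1 (3.88, limma adjusted p = 0.0097). Tyr-GTA-5-4 read through at 3.39%, 7.33% and 3.10% in the untreated IP, beside the treated 38.1%, 74.2% and 65.2% and the input near 2.57%. Tyr-GTA-2-1, Tyr-GTA-5-4 and Tyr-GTA-5-5 had similar counts and may share reads. Without replicate pair 1 or 2, 0 tRNAs passed, and without pair 3 there were 6. Tyr-GTA-8-1 went the other way without passing, from 47.0%, 65.5% and 99.7% untreated to 12.5%, 33.9% and 39.5% treated (log2 change -1.40, limma adjusted p = 0.13). Log2 changes from untreated to treated were 0.03 for Val-AAC-1-1, 0.02 for Val-AAC-4-1 and 0.02 for Val-CAC-1-7. Val-AAC read through at 42.8%, 67.6% and 99.5% untreated and 47.2%, 84.1% and 75.65% treated. Of its sites, 10 reached 7500 reads in an untreated library, near the limit. Leu-CAA, with 0 such sites, read through at 78.6%, 99.9% and 99.9% untreated and 50.5%, 61.25% and 101.8% treated.

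**Figure D5:**
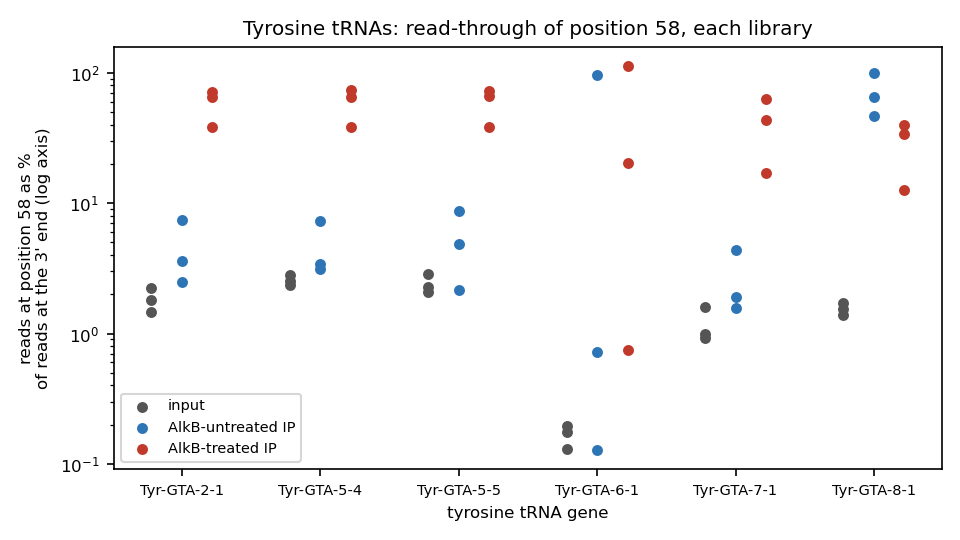
Read-through of position 58 (percent, log scale) in the 6 tyrosine tRNAs tested, by library, in the AlkB-treated IP, the untreated IP and the input. In Tyr-GTA-2-1, 5-4, 5-5 and 7-1 the untreated IP means are 2.615% to 5.227% and the input means 1.17% to 2.566%. The treated IP lies above both in these 4, whereas Tyr-GTA-6-1 and Tyr-GTA-8-1 are spread widely.

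By anticodon, 7 of 40 shares differed between treated and untreated IP (17.5%), 3 higher after AlkB (7.5%) and 4 lower (10%). Tyr-GTA was higher after AlkB (2.24), as were Gly-GCC (0.54) and Arg-TCG (6.58), and Leu-CAA (-1.97), Leu-CAG (-1.86), Val-AAC (-1.65) and Thr-CGT (-2.86) were lower. In the untreated IP, 20 Gly-GCC sites stood at 7500 reads or more, near the limit, so its untreated share is bounded by the counting. Tyr-GTA held 2.55%, 0.936% and 5.19% of the untreated reads, below all treated libraries. Without replicate pair 1, 2 or 3, 4, 1 and 5 anticodons passed. Mismatch rates differed at 0 of 293 sites by the quasi-binomial test, with 4 at an unadjusted p under 0.05 (1.37%).

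In the knockdown cells the same change was compared with that of the vector cells. Read-through per tRNA differed between the lines in 0 of 42 tRNAs (limma), though 8 had an unadjusted p below 0.05 (19%). Anticodon shares differed for 6 of 44 by edgeR (13.6%), 3 higher and 3 lower in knockdown cells (6.82% each).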

How the data were processed

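Small RNA of WPMY-1 cells was sequenced as input, as m1A IP and as AlkB-treated m1A IP. For each site the authors deposited read counts, mismatched-read counts and their quotient as a fraction, and also a fold (ratio) of untreated over treated rate, which was not used here. Per the submitters' processing notes, reads were trimmed with cutadapt 1.9.3 and processed with Bowtie2 2.2.4 and SAMtools 1.3.1 on hg38. How reads that match several tRNAs were placed is not given in the sources used here. The deposited rate equalled the quotient of counts to within 4.9e-13.

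From the counts, read-through was tested by limma 3.58.1 in R 4.3.3 on log2 ratios with 0.5 reads added. Shares were tested by edgeR 4.0.16 (anticodons with 10 reads in 3 libraries), and mismatches by a quasi-binomial model with at least 20 reads in each library, all with replicate number as a block and Benjamini-Hochberg adjustment. The rule for the comparison pairs libraries by number, so the block stands although the data did not bear the pairing out. Several ways to moderate the mismatch dispersion were tried with their calls in view before the present one was kept: a trended prior, floored at 1 before and after. On simulated 8-fold changes it recovered 26.7% of 60 sites (60% of the 25 with 30 or more mismatched reads) with 0 false calls, and edgeR and limma recovered all simulated 4-fold changes. The simulated spread was set in advance and alike in IP and input, whereas the IP replicates here differed far more than the inputs. For limma the simulation also held a replicate effect shared by IP and input, which these data did not show. Recovery at the spread of these data was not tested. Limits from counts of 0 use 3 counts and cover counting error only. Alternatives were DESeq2 1.42.0, TMM, other minimums and each replicate pair left out.

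Sites named are those past the threshold, the deepest position 58 site of each amino acid and the position 9 sites. Anticodons named are the 8 largest calls in each direction and the 5 deepest in input, and tRNAs the 10 largest called and 5 smallest read-through changes. Other tRNAs named in the read-through account were chosen after their values were seen. The members and lists were chosen with earlier results of these data known. Position 58 is taken as the site 15 nucleotides before the gene's 3′ end. Sequences come from the deposited table.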

Additional observations from a re-analysis of the deposited data

Results flagged for a closer look

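The change in share of reads from input to AlkB-treated IP differed between knockdown and vector cells for 6 of 44 anticodons (edgeR interaction, adjusted p under 0.05). Knockdown minus vector, on the log2 scale, was -1.55 for Gly-GCC, with mean shares of 26.2% in IP and 11.7% in input in vector cells and 17.6% and 21.8% in knockdown cells. It was -1.36 for Gly-CCC, with 7.41% and 4.04% in vector cells and 4.97% and 6.69% in knockdown cells. In knockdown IP replicates 1 and 2, 15 Gly-GCC and 5 Gly-CCC sites held 7500 reads or more in at least 1 library, near the limit of the counts. Both shares are therefore bounded there. The deepest site of replicate 3 held 2350 reads, so the limit was not reached in it. Over replicates 1, 2 and 3 the knockdown IP held 14.25%, 25.8% and 12.6% for Gly-GCC and 3.97%, 6.99% and 3.94% for Gly-CCC.

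For Gln-TTG the difference was 1.83, with 3.27% and 4.99% in vector cells and 11.0% and 3.82% in knockdown cells, whose IP values were 9.67%, 3.48% and 19.9% and include 2 sites near the limit. For His-GTG it was 2.75, with 0.0313% and 1.68% in vector cells and 0.2999% and 1.87% in knockdown cells. For Val-CAC it was 1.21, with 1.81% and 8.20% against 2.67% and 5.31%. For Arg-TCG it was -3.76, with 0.0872% and 0.0986% against 0.00809% and 0.130%. Without replicate pair 1, 2 or 3 the number of anticodons that passed was 0, 3 and 2.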

How the results depend on the processing

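Mismatch calls depended most on the handling of dispersion. Against 6 calls, there were 106 without moderation (3 of the 6 among them) and 110 without the floor (4 of the 6). Either of 2 other priors gave 8, an untrended prior from all sites 0 and limma on the logit 1. With a replicate pair left out there was 1 each time. With a minimum of 50 reads 0 of 235 sites passed. Each of the 6 called sites had a library under 50 reads, so that minimum left them untested. Numbered pairing was not borne out by the data; without the replicate block the calls were 7 for mismatches, 28 for anticodons and 44 for read-through. Anticodon calls, 24 in all, were 13 of 30 with 3′-end sites and 8 to 15 without a replicate pair; Glu-TTC turned to 2.28 and Thr-TGT to -0.23 at the 3′ end. Read-through gave 18 of 22 calls by anticodon. Against the untreated IP, leaving out a pair gave 0 to 6 read-through and 1 to 5 anticodon calls; between lines it gave 0 to 3 anticodon calls. The median mismatch difference (IP minus input, percentage points) turned to -0.045 at position 58 with 50 reads, moved to 0.104 (pooled) and 0.0734 (mean) at position 9, turned to 0.0289 (mean) at position 14, and at other sites turned to 0.00506 and 0.0141 with minimums of 10 and 50 reads and ran from -0.036 to 0.0384 without a pair. Coverage beyond 40 nucleotides turned to -5.31 points with the tRNA mix held, over fewer tRNAs; the step from 58 to 57 turned to -0.738 with the mix held and ran from -4.32 to 3.08 points without a pair. Without a pair, log2 odds ratios that turned ran from -0.67 to 0.0703 (Arg-ACG-2-1 A58), -0.22 to 0.11 (iMet-CAT-1-1 A57), -0.35 to 0.54 (Leu-CAG-1-1 A68), -1.14 to 0.0739 (Ser-TGA-4-1 A67), -0.67 to 0.87 (Val-TAC-2-1 A58), -0.05 to 0.77 (Phe-GAA-1-3 A58), -0.19 to 0.80 (Ala-TGC-3-2 A57), -0.29 to 0.29 (Ala-TGC-3-2 A9) and -0.0736 to 0.23 (Ala-AGC-4-1 A9), and iMet-CAT-1-1 read-through from -0.15 to 0.25; none of these passed in the full data. The causes were not tested. At Gly-TCC-2-1 A67 the adjusted p was 0.609 with the untrended prior. The summed read-through, the A21 pool and the steps from 60 and 59 kept direction under each alternative run. Few mismatched reads limit the site tests.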
